A study of Mus musculus with 16 samples.

Results

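The 10 mouse genes *Nol4*, *Pdlim5*, *Osbpl9*, *Iqce*, *Dvl2*, *Rora*, *Smg1*, *Ktn1*, *Serpinb6a* and *Cct4* are described here isoform by isoform in the hippocampus of mice after a learned helplessness procedure. They were taken because each holds 1 transcript whose level differed between learned helpless mice and each of the other groups that went through escape trials. All transcripts listed under these gene names were then followed, 94 of the 80137 transcripts and 10 of the 18287 gene names of the series. Total RNA of the hippocampus was sequenced from 16 male wild type C57BL/6 mice aged 3 months. Each library came from 1 mouse and joined its left and right hippocampus. Homecage mice (HC, n = 4) stayed in their cages, with no handling, no testing and no shock. Control mice (Ctrl, n = 4) were put in the shuttle box without inescapable shocks and later went through 30 escape trials with foot shocks of 0.4 mA. Non-learned helpless mice (NLH, n = 4) and learned helpless mice (LH, n = 4) had first received 180 inescapable foot shocks of 0.4 mA and then the same 30 trials. LH and NLH thus shared one treatment and were told apart by their failures and escape latencies in the trials, so they are groups sorted by behavior and not by treatment.

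One gene can give rise to many RNA isoforms through different start sites, exons and ends. Some isoforms encode protein. Others keep an intron, or carry an early stop codon that sends them to nonsense-mediated decay, the pathway that removes such RNAs. The value of an isoform is its FPKM, the fragments assigned to it per kilobase of its length, scaled to the size of the library. Isoforms of 1 gene share most of their bases, so a fragment from a shared exon is divided between them by estimation. In bulk tissue, fewer cells of a type and less RNA per cell cannot be told apart.

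The 16 libraries did not stand alike. Depth, estimated from the steps between FPKM values, was 28180000, 23900000, 24780000 and 20200000 fragments in LH mice 1 to 4 and 27000000 to 38020000 in the other 12 mice. LH 2, LH 3 and LH 4 were thus the shallowest of the 16 libraries, and the part of depth in the LH values was not tested. Summed FPKM was 150826, 158004, 129198 and 120208 in LH mice 1 to 4 and 122690 to 147192 in the other 12 mice. Median-ratio size factors were 1.11, 1.13, 0.895 and 0.751 in LH mice 1 to 4 and 0.975 to 1.09 in the others. The FPKM were not scaled further, and the part of this scale in the LH values was not tested. In LH 3 and LH 4, 37.6% and 45.7% of all transcripts were under 0.01 FPKM, against 24.6% to 30.6% in the other 14 mice. Of the 94 member transcripts, 47 in LH 3 and 56 in LH 4 were under 0.01 FPKM, against 26 to 37 in the others. Values for LH are therefore mostly given by mouse, or with and without these 2 mice. Marker genes of hippocampal neurons summed to 152 to 248 FPKM in every mouse. Those of the choroid plexus (5 of 5 listed) varied widely in all groups, from 3.13 to 39.0 FPKM in HC, 17.2 to 51.6 in Ctrl, 4.20 to 64.4 in NLH and 2.57 to 91.6 in LH. Those of endothelium (2 of 3 listed) summed to 3.80 to 11.8 FPKM in LH and to at most 5.61 in the other 12 mice. The 2 markers went opposite ways. *Flt1* averaged 5.39 FPKM in LH against 2.18, 2.28 and 3.22 in HC, Ctrl and NLH. *Pecam1* was lowest in LH, at 1.44 FPKM against 1.61, 1.66 and 1.95. The part of these cells in the results was not tested.

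The isoforms were chosen by limma, a linear model with a shared estimate of the spread, on log2(FPKM + 0.1), with Benjamini-Hochberg adjusted p under 0.05 in each of the contrasts LH vs. Ctrl and LH vs. NLH. Among all transcripts 12 met this, which is 0.015% of those tested, and 10 of them belong to the genes described here. The others were 1 transcript of *Itsn1* and 1 with no gene name. The calls depend on the settings. Of the 94 member transcripts, 10 passed in each contrast, but with a pseudocount of 1 only 1 and 1 did, with only the 2 compared groups in the fit 1 and 2, with a replicate block 3 and 5, and without LH 3 and LH 4 8 and 4 (LH vs. Ctrl first). Taken singly, LH vs. Ctrl had 0.0237% of transcripts higher and 0.0225% lower in LH, and LH vs. NLH had 0.0137% higher and 0.0275% lower. Each of the 10 genes holds exactly 1, called its separating isoform below. Its bases and junctions were compared with those of the other listed isoforms of its gene that were matched in GENCODE. Assembled transcripts without an Ensembl identifier at these loci were not compared, and may hold the same bases or junctions. Because these contrasts chose the isoforms, their LH values are a description and carry no test. The larger of the 2 adjusted p-values of limma was 0.0467 for the *Ktn1* isoform, just inside the threshold, and 0.0513 for a transcript of *Slc23a2*, just outside it.

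The separating isoforms lower in LH numbered 6, those of *Nol4*, *Pdlim5*, *Osbpl9*, *Iqce*, *Dvl2* and *Cct4*, and those higher in LH numbered 4, those of *Rora*, *Smg1*, *Ktn1* and *Serpinb6a*. In all 10, the 4 LH values lay outside the range of the other 12 mice. Over all transcripts this holds for 0.601%, with 0.399% lower and 0.202% higher in LH. These values chose the isoforms, and HC mice entered the fit through the shared spread, so nothing is read from that count. The pattern was close to present or absent. The 4 isoforms higher in LH were under 0.01 FPKM in at least 11 of the other 12 mice, and the 6 lower in LH were under 0.01 FPKM in at least 2 of 4 LH mice.

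**Figure D1:**
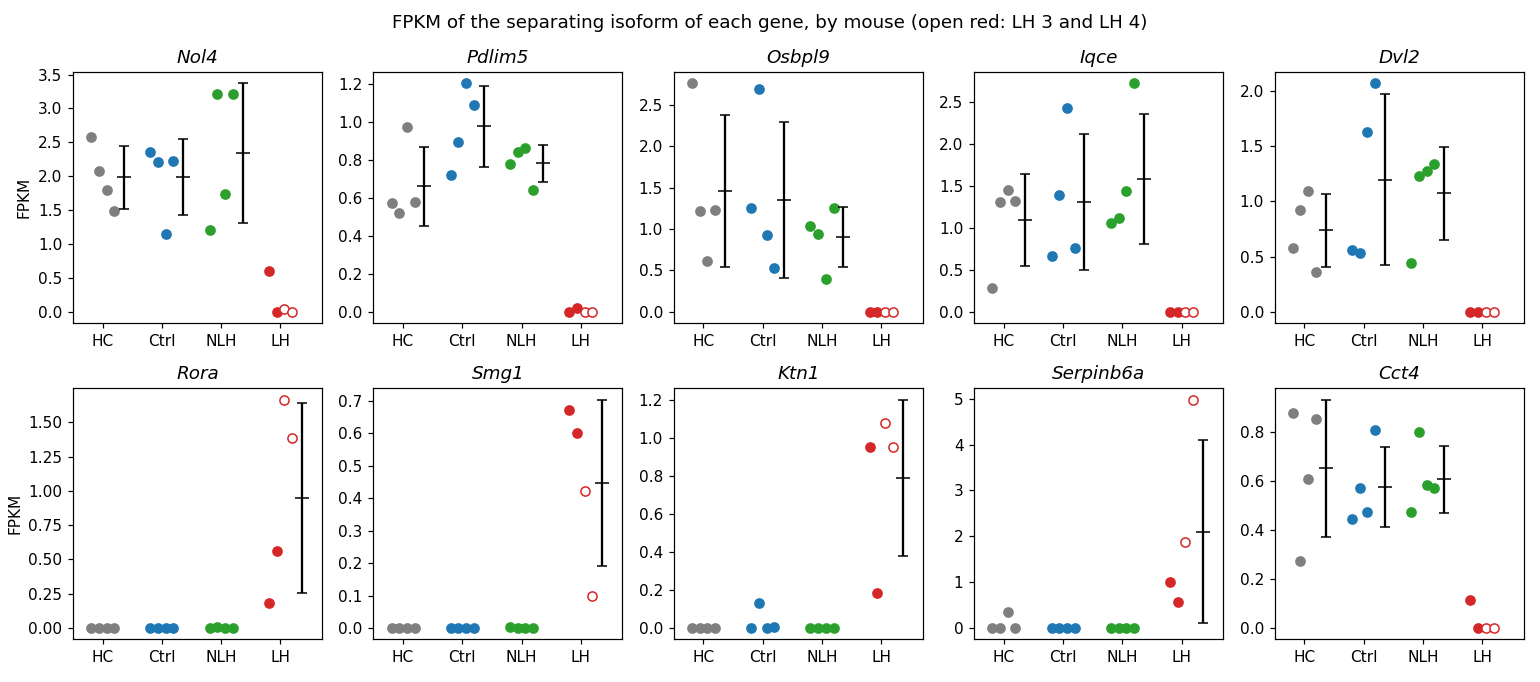
FPKM (linear axes, 1 scale per gene) of the separating isoform of each gene, with 1 point per mouse in the HC, Ctrl, NLH and LH groups and open red points for LH 3 and LH 4. Black bars give the mean ± SD of the 4 mice where all 4 were at least 0.01 FPKM, and in every panel the 4 red points lie outside the range of the other 12 mice.

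*Dvl2* encodes Dishevelled 2, a cytoplasmic protein that passes the Wnt signal from Frizzled receptors to the machinery that controls beta-catenin. Its separating isoform, ENSMUST00000152732.1 (chr11:70006980-70008069, plus strand, GRCm38), is a retained-intron RNA of 720 bases with no coding stretch in GENCODE vM21. Its first 473 bases are in no other listed *Dvl2* isoform and hold the 3′ part of intron 9 of the coding isoform ENSMUST00000190940.1. The end of this intron and the start of the next exon, at chr11:70007423-70007467, are shown because they tell the isoform from spliced *Dvl2* RNA. Capitals mark the intron bases.
Dvl2 ENSMUST00000152732.1: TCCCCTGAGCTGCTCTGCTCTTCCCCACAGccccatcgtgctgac
The isoform measured 0.577, 0.918, 1.09 and 0.363 FPKM in HC mice 1 to 4, and 0.559, 0.531, 1.63 and 2.07 FPKM in Ctrl. It measured 0.442, 1.23, 1.28 and 1.34 FPKM in NLH and was under 0.01 in all 4 LH mice. It was thus present in 12 of 12 mice outside LH and had the highest mean of the listed *Dvl2* isoforms in Ctrl and NLH. In HC its mean of 0.738 FPKM was below the 0.787 FPKM of ENSMUST00000190940.1. By share, it held 28.0 ± 10.7% of summed *Dvl2* FPKM in Ctrl (SD, n = 4) and 29.5 ± 10.2% in NLH. These values rest on few fragments, an estimated median of 17.0 per mouse outside LH.

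The other 5 *Dvl2* isoforms together measured 2.72 ± 0.460 FPKM in Ctrl, 2.48 ± 0.257 in NLH and 2.15 ± 0.613 in LH (2.26 without LH 3 and LH 4), with overlapping ranges. The summed gene was 1.73, 2.80, 2.55 and 1.54 FPKM in the LH mice and 3.00 to 4.04 FPKM in NLH. Those ranges did not overlap, as was so for 1.26% of all gene names lower in LH vs. NLH. Most of that difference in the sum was the separating isoform itself. The Ctrl sums, 2.80 to 5.34 FPKM, overlapped with LH through LH 2. The leading coding isoform, ENSMUST00000190940.1, measured 0.571, 0.552, 0.258 and 0.265 FPKM in LH and 0.508 to 0.807 FPKM in Ctrl. Its LH 3 and LH 4 values were the lowest of the 16 mice, while LH 1 and LH 2 lay inside the Ctrl range.

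*Iqce* encodes an IQ-motif protein at the base of the primary cilium, where it anchors the EvC complex needed for Hedgehog signals. Its separating isoform, ENSMUST00000148788.1 (chr5:140666158-140669359, minus strand, GRCm38), is a retained-intron RNA of 389 bases from the 3′ end of the gene. It lies within intron 21 of 22 of the coding isoform ENSMUST00000041783.13, apart from its last bases. No other listed isoform holds its first 239 bases, whose end is shown in capitals, followed by an exon that other listed isoforms share, at chr5:140669106-140669150.
Iqce ENSMUST00000148788.1: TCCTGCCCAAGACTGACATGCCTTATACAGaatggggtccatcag
It measured 0.282, 1.31, 1.46 and 1.32 FPKM in HC mice 1 to 4, and 0.662, 1.39, 2.42 and 0.756 FPKM in Ctrl. NLH values were 1.06, 1.12, 1.43 and 2.72 FPKM, and all 4 LH mice were listed at 0. HC 1 was the lowest of the 12 mice outside LH. At the depth of these libraries the isoform corresponds to an estimated median of 8.30 fragments per mouse outside LH, with 1.72 in the lowest mouse.

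The remaining 10 *Iqce* isoforms summed to 4.80, 6.69, 4.52 and 2.71 FPKM in LH and to 4.60 ± 0.466 FPKM in Ctrl (SD, n = 4). LH 2 was above every Ctrl mouse and LH 4 below, so the rest of the gene had no common direction in LH. The leading isoform, ENSMUST00000147839.7, is also annotated as retained intron and measured 1.70, 2.14, 0.710 and 1.63 FPKM in LH, against 1.40 to 2.00 FPKM in Ctrl. One further isoform, ENSMUST00000149674.7, was lower in LH than in both comparison groups without overlap, with 0.658, 0.619, 0.535 and 0.569 FPKM against 0.855 to 1.02 FPKM in Ctrl and 0.722 to 0.979 FPKM in NLH. It is named after its values were seen. HC mice reached down to 0.613 FPKM and overlapped with LH.

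*Cct4* encodes a subunit of TRiC, the ring-shaped chaperonin that folds actin, tubulin and other proteins. Its separating isoform, ENSMUST00000145912.1 (chr11:23000937-23001619, plus strand, GRCm38), has 596 bases and is annotated as a processed transcript without a coding stretch. It keeps the whole of intron 9, 407 bases, of the coding isoform ENSMUST00000173867.7. Both ends of this intron are shown in capitals beside the flanking exon bases, at chr11:23000940-23000984 and chr11:23001332-23001376.
Cct4 ENSMUST00000145912.1, start of the intron: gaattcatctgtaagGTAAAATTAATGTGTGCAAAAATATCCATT
Cct4 ENSMUST00000145912.1, end of the intron: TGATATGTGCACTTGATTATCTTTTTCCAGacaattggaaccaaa
It measured 0.878, 0.275, 0.607 and 0.852 FPKM in HC mice 1 to 4, and 0.446, 0.573, 0.473 and 0.807 FPKM in Ctrl. NLH mice measured 0.476, 0.799, 0.582 and 0.573 FPKM. In LH, LH 1 measured 0.113 FPKM and the other 3 were listed at 0. The 12 mice outside LH thus overlapped freely with each other, and the isoform held only 3.21 ± 0.656% of *Cct4* FPKM in Ctrl, an estimated median of 8.07 fragments per mouse outside LH.

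*Cct4* as a gene was carried by its coding isoforms. The rest of the gene measured 21.4, 22.7, 13.4 and 12.4 FPKM in LH and 17.2 ± 1.37 FPKM in Ctrl. LH 1 and LH 2 were above all 12 mice outside LH, and LH 3 and LH 4 were below them all. Summed over all transcripts, FPKM was also highest in LH 1 and LH 2 and lowest in LH 4. Of all single transcripts, 4.93% were higher in LH 1 and LH 2 than in the 12 mice outside LH. The leading isoform ENSMUST00000173867.7 measured 8.69, 13.1, 5.23 and 5.99 FPKM in LH mice 1 to 4, against 7.36 to 8.78 FPKM in Ctrl. Here LH 2 was above the Ctrl range, LH 1 inside it, and LH 3 and LH 4 below it.

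*Nol4* encodes nucleolar protein 4, expressed mainly in neurons. Its separating isoform, ENSMUST00000164893.7, is a coding RNA of 2175 bases with 1719 coding bases, the longest coding stretch among the 6 listed *Nol4* isoforms. It has no base and no exon junction that the other listed isoforms lack, so its FPKM comes from how shared fragments were divided. It measured 2.58, 2.07, 1.80 and 1.48 FPKM in HC mice 1 to 4, and 2.35, 2.21, 1.15 and 2.23 FPKM in Ctrl. It measured 1.20, 3.21, 1.74 and 3.22 FPKM in NLH and 0.596 and 0.0439 FPKM in LH 1 and LH 3, with LH 2 and LH 4 under 0.01. Its share of *Nol4* FPKM was 25.3 ± 7.76% in Ctrl (SD, n = 4) and at most 5.85% in any LH mouse.

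The rest of *Nol4* was higher in LH, but it does not stand apart from the separating isoform. Fragments not assigned to that isoform can be assigned to the others. The other 5 isoforms summed to 9.60, 11.2, 12.5 and 8.06 FPKM in LH, against 5.01 to 7.01 FPKM in Ctrl, 3.79 to 7.97 FPKM in NLH and 3.88 to 5.50 FPKM in HC. All 4 LH mice were above the other 12, LH 4 by the smallest margin. This contrast is the one that chose the gene, so no test is attached. The summed gene was 10.2, 11.2, 12.5 and 8.06 FPKM in LH mice 1 to 4. It was 7.37 to 8.16 FPKM in Ctrl and 7.01 to 9.71 FPKM in NLH, with overlap through LH 4. The leading isoform, ENSMUST00000092015.10, measured 6.57, 6.90, 6.54 and 3.86 FPKM in LH and 3.48 to 4.68 FPKM in Ctrl. LH 4 lay inside the Ctrl range. In NLH it was 4.66, 2.38, 2.75 and 1.68 FPKM, lowest in NLH 4 and next lowest in NLH 2, the mice with the 2 highest values of the separating isoform.

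**Figure D2:**
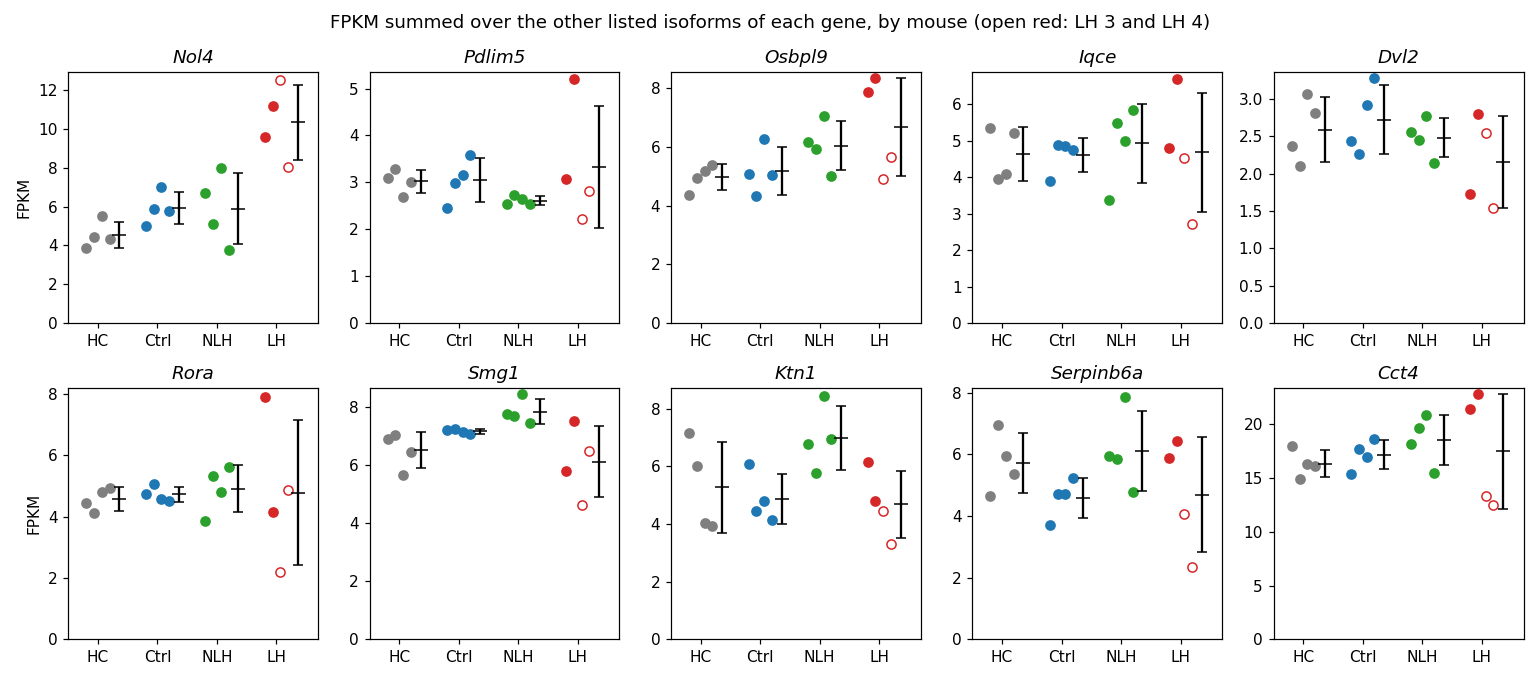
FPKM (linear axes from 0, 1 scale per gene) summed over all listed isoforms of each gene other than the separating one, with 1 point per mouse, open red points for LH 3 and LH 4, and black bars for the mean ± SD of 4 mice. In *Nol4* alone do all 4 LH mice (8.06 to 12.5 FPKM) lie above the other 12, while in *Cct4* LH 1 and LH 2 lie above them and LH 3 and LH 4 below.

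*Pdlim5* encodes a PDZ and LIM domain protein that tethers kinases to the cytoskeleton, and its short splice forms without LIM domains are known to differ from the long form. The separating isoform, ENSMUST00000168967.8 (chr3:142302320-142391850, minus strand, GRCm38), has 702 coding bases, of which 593 are shared with the 1773 coding bases of the leading isoform ENSMUST00000029941.15. All its bases are in other listed isoforms, and 1 of its 7 exon junctions is not. That junction is shown as 30 spliced bases whose outer ends are chr3:142304708-142312137, with the downstream exon in capitals.
Pdlim5 ENSMUST00000168967.8: taagcagcaaaatggGAAAATTCCACCTAA
The isoform measured 0.574, 0.520, 0.970 and 0.578 FPKM in HC mice 1 to 4, and 0.718, 0.894, 1.20 and 1.08 FPKM in Ctrl. NLH values were 0.778, 0.839, 0.860 and 0.641 FPKM. In LH the highest value was 0.0175 FPKM in LH 2, and the other 3 were under 0.01. The larger of its adjusted p-values by limma, 0.000331, was the smallest of the 12 transcripts. It held 24.1 ± 2.29% of *Pdlim5* FPKM in Ctrl and 23.0 ± 1.90% in NLH (SD, n = 4 each).

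The leading long isoform ENSMUST00000029941.15 overlapped in all groups, at 2.05, 3.00, 1.53 and 2.18 FPKM in LH and 2.04 to 2.85 FPKM in Ctrl. The rest of *Pdlim5* was 3.05 ± 0.474 FPKM in Ctrl and 3.33 ± 1.30 FPKM in LH, or 4.14 FPKM without LH 3 and LH 4. Within that rest, ENSMUST00000090134.11 measured 1.09, 0.567 and 0.636 FPKM in LH 2 to LH 4 and was under 0.01 in LH 1 and in 10 of the other 12 mice. It is named after its values were seen, and it did not separate the groups.

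*Osbpl9* encodes an oxysterol-binding protein that carries lipids between membranes of the Golgi and endoplasmic reticulum. Its separating isoform, ENSMUST00000160271.7 (chr4:109061650-109118036, minus strand, GRCm38), has 20 exons and 1878 coding bases, 1851 of them in common with the leading isoform ENSMUST00000030288.13. Only its first 14 bases, upstream of the coding stretch, lie outside every other listed isoform. It measured 2.76, 1.22, 0.614 and 1.23 FPKM in HC mice 1 to 4, and 1.26, 2.69, 0.928 and 0.528 FPKM in Ctrl. It measured 1.03, 0.943, 0.397 and 1.25 FPKM in NLH and was under 0.01 in all LH mice. The spread among the 12 mice outside LH was wide, from 0.397 to 2.76 FPKM, and no LH mouse entered it.

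The other 13 *Osbpl9* isoforms summed to 7.86, 8.33, 4.91 and 5.64 FPKM in LH, against 4.33 to 6.28 FPKM in Ctrl and 5.02 to 7.03 FPKM in NLH. LH 1 and LH 2, which had the highest summed FPKM, were above all 12 mice outside LH, as for 4.93% of all single transcripts. LH 3 and LH 4 were inside the range of these 12 mice. The summed gene was 6.53 ± 0.745 FPKM in Ctrl and 6.68 ± 1.67 FPKM in LH, or 8.09 FPKM without LH 3 and LH 4. The leading isoform ENSMUST00000030288.13 was 2.44, 3.29, 0.871 and 3.53 FPKM in LH and 0.692 to 2.31 FPKM in Ctrl, with overlap through LH 3.

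*Rora* encodes a nuclear receptor that drives circadian gene expression and the development of Purkinje cells. Its separating isoform, ENSMUST00000143507.1 (chr9:68655303-68664180, plus strand, GRCm38), is a processed transcript of 508 bases from the 5′ end of a gene that extends to chr9:69388246. It holds 60 bases and 1 junction that no other listed *Rora* isoform has. This junction is shown as 30 spliced bases with outer ends chr9:68655348-68663359 and the downstream exon in capitals.
Rora ENSMUST00000143507.1: gatctctccagccagGTGACTTTATAATCT
It measured 0.179, 0.562, 1.67 and 1.39 FPKM in LH mice 1 to 4 and was under 0.01 in all 12 other mice. LH 3 and LH 4 were the highest, so the difference between LH and Ctrl on log2(FPKM + 0.1) was 3.06 with all LH mice and 2.10 without these 2. The short length makes these values rest on few fragments, an estimated 1.56 to 12.8 in the LH mice. The coding isoform ENSMUST00000034766.13 led the gene, at 5.96, 2.95, 1.50 and 3.56 FPKM in LH and 2.46 to 2.89 FPKM in Ctrl. The rest of *Rora* overlapped between all groups, at 4.73 ± 0.252 FPKM in Ctrl and 4.78 ± 2.37 FPKM in LH, or 6.03 FPKM without LH 3 and LH 4. ENSMUST00000140351.7, named after its values were seen, measured 1.31, 0.954, 0.702 and 1.09 FPKM in LH, below the 1.63 to 1.71 FPKM of Ctrl without overlap, while it overlapped NLH at 1.18 to 2.10 FPKM.

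*Smg1* encodes the kinase that phosphorylates UPF1 and so starts nonsense-mediated decay. Its separating isoform, ENSMUST00000032891.14 (chr7:118131308-118243637, minus strand, GRCm38), has 63 exons and 10974 coding bases the longest coding stretch of the 6 listed *Smg1* isoforms. No other listed isoform holds its last 2739 bases. It measured 0.672, 0.601, 0.422 and 0.0985 FPKM in LH mice 1 to 4 and was under 0.01 in the other 12. LH 4 was the lowest of the 4, and without LH 3 and LH 4 the difference from Ctrl on log2(FPKM + 0.1) was 2.88, against 2.28 with them. Because the RNA is long, these values correspond to an estimated 30.6 to 291 fragments per LH mouse, with the highest median, 191, of the 10 isoforms.

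The leading *Smg1* isoform, ENSMUST00000179331.8, is annotated as a target of nonsense-mediated decay with 175 coding bases. It measured 3.11, 4.46, 1.00 and 1.62 FPKM in LH and 3.21 to 3.57 FPKM in Ctrl. The rest of the listed gene was 6.12 ± 1.22 FPKM in LH (6.67 without LH 3 and LH 4), 6.52 ± 0.616 FPKM in HC, 7.17 ± 0.0785 FPKM in Ctrl and 7.84 ± 0.437 FPKM in NLH. HC lay below Ctrl and Ctrl below NLH without overlap, and LH overlapped with all 3. Of all summed gene names, 3.32% were higher without overlap in Ctrl vs. HC and 4.76% in NLH vs. Ctrl. The locus also holds assembled transcripts with no Ensembl identifier, which are not counted in these sums. They summed to 9.07 to 9.78 FPKM in LH and 9.05 to 9.71 FPKM in Ctrl, more than all the listed *Smg1* isoforms of Ctrl. With them in the sum, the separating isoform held 2.79 ± 1.54% of the locus in LH (SD, n = 4), against 6.90 ± 3.81% of the listed gene. Without LH 3 and LH 4 these shares were 3.78% and 8.88%.

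*Ktn1* encodes kinectin, a membrane protein of the endoplasmic reticulum that binds the motor kinesin. Its separating isoform, ENSMUST00000189986.6 (chr14:47649394-47736564, plus strand, GRCm38), is annotated as a target of nonsense-mediated decay, with 4298 bases in 40 exons and 534 coding bases, where the longest listed *Ktn1* coding stretch has 3981. Of its 39 junctions, 3 are in none of the 17 other listed isoforms that were matched in GENCODE, and 1 listed isoform was not matched. One of them, after base 731, joins exons so that the codon TAA closes the reading frame at bases 737 to 739, with 36 further junctions downstream. It is shown as 30 spliced bases with outer ends chr14:47664301-47667315. Capitals mark the downstream exon, whose 6th to 8th bases are this stop codon.
Ktn1 ENSMUST00000189986.6: ctaaaaatggaagcgCAAGATAAAAAGGTG
The isoform measured 0.954, 0.181, 1.08 and 0.950 FPKM in LH mice 1 to 4, with LH 2 far below the others. Of the 12 other mice, Ctrl 2 reached 0.133 FPKM and the rest were under 0.01. LH 2 and Ctrl 2 were thus close, and the separation of the groups was narrower here than in any other of the isoforms higher in LH.

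The other 18 listed *Ktn1* isoforms summed to 4.68 ± 1.17 FPKM in LH (5.48 without LH 3 and LH 4), 4.86 ± 0.862 FPKM in Ctrl and 6.98 ± 1.10 FPKM in NLH. The leading isoform, ENSMUST00000190857.1, keeps an intron and overlapped in all groups, at 0.994 to 1.65 FPKM in LH and 1.25 to 1.65 FPKM in Ctrl.

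*Serpinb6a* encodes an intracellular inhibitor of serine proteases that protects cells from their own leaked proteases. Its separating isoform, ENSMUST00000168350.7 (chr13:33923019-33935848, minus strand, GRCm38), is annotated as an incomplete RNA of 578 bases whose 486 coding bases all lie in the leading isoform ENSMUST00000043552.16. Its first 54 bases and 1 of its 4 junctions are in no other listed isoform. It measured 0.998, 0.559, 1.88 and 4.98 FPKM in LH mice 1 to 4, and 0.351 FPKM in HC 3. The other 11 mice were under 0.01. LH 4 alone was above 2 FPKM, and the LH minus Ctrl difference on log2(FPKM + 0.1) was 4.04 with all LH mice and 3.09 without LH 3 and LH 4.

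In LH 4 the leading *Serpinb6a* isoform was under 0.01 FPKM, where it measured 3.41, 5.07 and 3.50 FPKM in LH 1 to LH 3 and 1.96 to 2.77 FPKM in Ctrl. In that mouse the separating isoform was 68.0% of the gene, and in the other LH mice it was 14.5%, 7.99% and 31.6%. The gene as a sum changed less. It was 6.90, 7.01, 5.94 and 7.33 FPKM in LH and 3.70 to 5.25 FPKM in Ctrl. These ranges did not overlap, as was so for 4.05% of all gene names higher in LH vs. Ctrl, while NLH at 4.77 to 7.87 FPKM overlapped with LH.

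The 10 separating isoforms share no single type. Of them, 5 are annotated as protein coding, 2 as retained intron, 2 as processed transcript and 1 as nonsense-mediated decay. Types other than protein coding thus make up 5 of 10, against 44.7% of the 52535 matched transcripts of coding genes in the table and 44.1% of the 93 member transcripts that were matched. The incomplete *Serpinb6a* isoform counts as protein coding here. *Iqce*, *Dvl2* and *Cct4* are alike in that over 60% of the bases of each are intron bases found in no other listed isoform of the gene, and all 3 were lower in LH. By group mean, the *Dvl2* isoform led its gene in Ctrl and NLH, the *Iqce* isoform in NLH and the *Osbpl9* isoform in HC, and the other separating isoforms led their gene in no group. Only the *Nol4* isoform had a mean of at least 1 FPKM over the 16 mice, as 17 of all 94 member transcripts did.

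**Figure D3:**
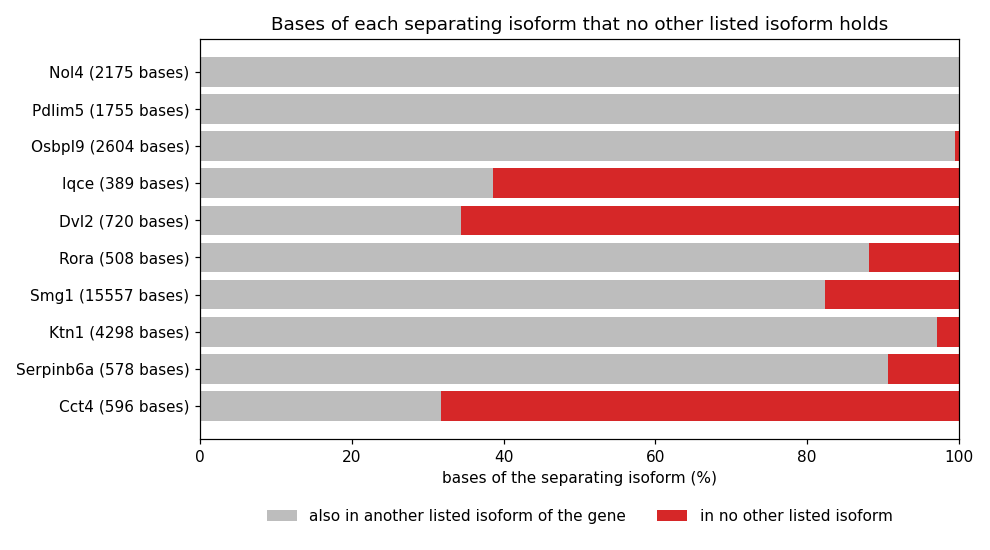
Share of the bases of each separating isoform (horizontal axis, %) that also lie in another listed isoform of its gene (grey) or in none (red), with the isoform's length beside the gene name. *Cct4* (68.3%), *Dvl2* (65.7%) and *Iqce* (61.4%) hold the largest shares of their own bases, and *Nol4* and *Pdlim5* hold none. Assembled transcripts without an Ensembl identifier were not compared.

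Of the 84 other member transcripts, none passed the adjusted threshold of limma, passed by 0.0462% of all transcripts for LH vs. Ctrl and by 0.0412% for LH vs. NLH. At an unadjusted p under 0.05 LH vs. Ctrl had 7 of 84 and LH vs. NLH 11 of 84, against 10.7% and 8.72% of all transcripts. For LH vs. Ctrl the groups were apart in 5 of the 84, all lower in LH, against 5.85% of all transcripts in either direction and 3.52% lower. For LH vs. NLH they were apart in 3 of the 84, again all lower, against 3.18% and 2.25%. Both comparisons share the LH mice, and the members were chosen on them, so nothing is read from these counts.

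The contrasts Ctrl vs. HC and NLH vs. Ctrl did not define the choice, although their mice entered it. Ctrl mice differed from HC mice by handling, the shuttle box and the escape trials together. NLH mice differed from Ctrl mice by inescapable shocks, and were those that still escaped. In neither contrast was a member transcript past the adjusted threshold of limma, where 0.00374% and 0.0125% of all transcripts were. At an unadjusted p under 0.05 there were 3 of 94 in Ctrl vs. HC and 4 of 94 in NLH vs. Ctrl, against 3.45% and 5.12% of all transcripts. The test for pairs of groups in the study's methods, at an unadjusted p under 0.05, gave 5 and 2, against 6.68% and 7.2%. Groups were apart in 4 of 94 in Ctrl vs. HC and 2 of 94 in NLH vs. Ctrl, against 4.48% and 5.02% of all transcripts. For the 10 separating isoforms these contrasts are given as a description, since the choice required Ctrl and NLH both to stand apart from LH with a small spread.

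The separating isoforms lower in LH were measured in all 12 mice of the other groups. On log2(FPKM + 0.1), Ctrl minus HC was -0.02 (SE 0.52) for *Nol4*, 0.51 (SE 0.25) for *Pdlim5*, -0.14 (SE 0.47) for *Osbpl9*, 0.26 (SE 0.47) for *Iqce*, 0.51 (SE 0.45) for *Dvl2* and -0.09 (SE 0.37) for *Cct4*. NLH minus Ctrl was 0.17, -0.27, -0.41, 0.33, -0.03 and 0.08 in the same order, with the same SE. With standard errors of this size, moderate changes would not have been detectable. For the 4 higher in LH, nearly all mice outside LH were under 0.01 FPKM, so these contrasts bear little on them.

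**Figure D4:**
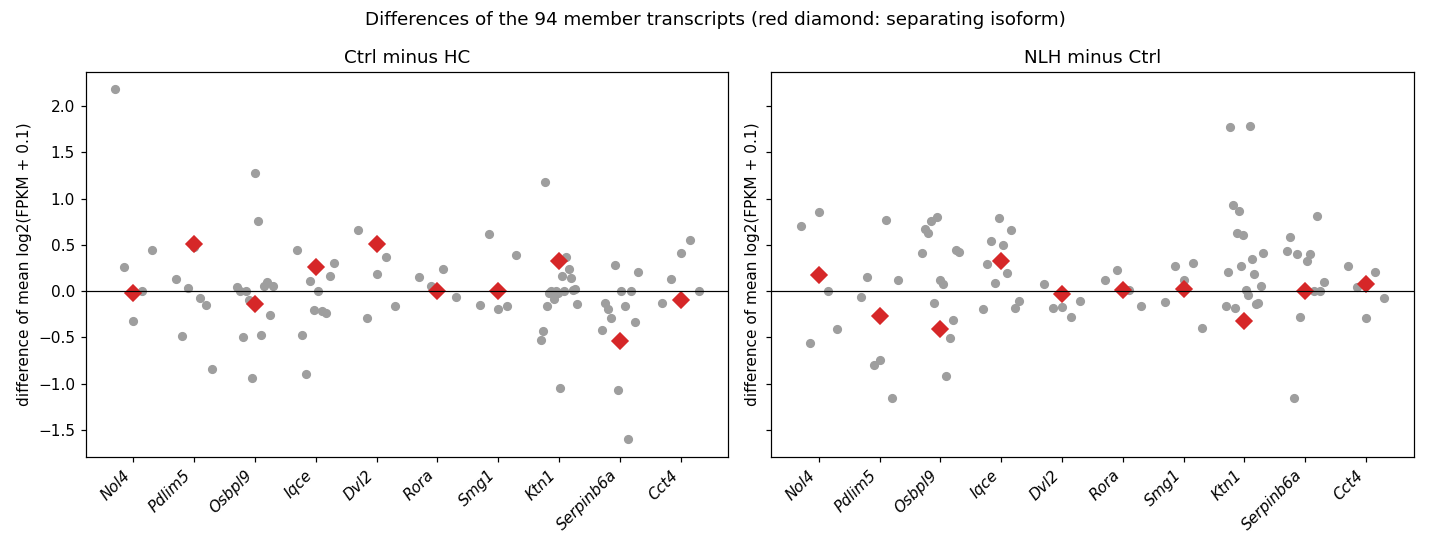
Difference of mean log2(FPKM + 0.1) of each of the 94 member transcripts, by gene, for Ctrl minus HC (left) and NLH minus Ctrl (right), with red diamonds for the separating isoforms and grey points for the others. The separating isoforms lie between -0.54 and 0.51 on the left and between -0.41 and 0.33 on the right, inside the spread of the other isoforms, and no transcript passed the adjusted threshold of limma.

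The 3 transcripts with the smallest unadjusted p in these contrasts belonged to *Serpinb6a*, *Nol4* and *Ktn1*. The *Serpinb6a* isoform ENSMUST00000170991.7 measured 0.199, 0.0772, 0.217 and 0.409 FPKM in HC mice 1 to 4 and was under 0.01 in all 12 other mice. Its limma p in Ctrl vs. HC was 1.87e-05 and the adjusted p 0.214. The *Nol4* isoform ENSMUST00000081423.12 was under 0.01, 0.277, 0.0188 and 0.613 FPKM in HC and 0.699, 0.501, 1.74 and 1.43 FPKM in Ctrl, with overlap (limma p 0.0233, adjusted p 1). The *Ktn1* isoform ENSMUST00000189101.6 measured 1.90 and 0.616 FPKM in NLH 3 and NLH 4 and was under 0.01 in the other 14 mice (limma p in NLH vs. Ctrl 0.0238, adjusted p 0.883).

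The share of each separating isoform in its gene does not move with the scaling between mice. It is given as a description, since the choice used the Ctrl and NLH values. *Pdlim5* had a share of 24.1 ± 2.29% in Ctrl and 15.7, 13.7, 26.5 and 16.1% in HC mice 1 to 4, with HC 3 inside the Ctrl range. *Dvl2* had 28.0 ± 10.7% in Ctrl and 21.9 ± 8.31% in HC, with overlap. The *Ktn1* isoform had 2.91% in Ctrl 2 and at most 0.123% in any other mouse outside LH.

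The shares are smaller where assembled transcripts without an Ensembl identifier are added to the sum of the locus. In Ctrl the share then fell from 25.3% to 16.7 ± 4.57% for *Nol4*, from 20.1% to 15.1 ± 10.1% for *Osbpl9* and from 28.0% to 22.1 ± 11.0% for *Dvl2* (SD, n = 4). For *Ktn1* it fell from 14.7 ± 8.28% to 6.74 ± 3.38% in LH, or from 8.54% to 4.46% without LH 3 and LH 4, and from 2.91% to 1.48% in Ctrl 2.

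Summed over their isoforms, none of the 10 genes passed the adjusted threshold of limma in any of the 4 contrasts, where 0.0%, 0.0109%, 0.0% and 0.00547% of all gene names did in LH vs. Ctrl, LH vs. NLH, Ctrl vs. HC and NLH vs. Ctrl. At an unadjusted p under 0.05 there were 3, 4, 0 and 2 of 10 in the same order, against 11.5%, 7.54%, 2.7% and 5.59% of all gene names, and 3, 1, 1 and 2 by the methods' test, against 8.01%, 3.5%, 8.5% and 9.57%. The sums hold the separating isoforms, so nothing is read from the LH counts. The 2 in NLH vs. Ctrl were *Ktn1*, 6.98 ± 1.10 against 4.89 ± 0.841 FPKM (log2 difference 0.51, limma p 0.0244), and *Serpinb6a*, 6.11 ± 1.29 against 4.59 ± 0.649 FPKM (0.39, limma p 0.0268). With median-ratio size factors 1 gene passed in LH vs. Ctrl, as 2.87% of all gene names did, and 1 passed when LH 4 was left out, as 1.04% did.

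Genes of the same families and pathways were set beside them, 62 listed of 63 chosen. None passed the adjusted threshold of limma in any contrast, and at an unadjusted p under 0.05 there were 10, 5, 3 and 9 of 62 in LH vs. Ctrl, LH vs. NLH, Ctrl vs. HC and NLH vs. Ctrl, against 11.5%, 7.54%, 2.7% and 5.59% of all gene names. The methods' test gave 7, 2, 14 and 11, against 8.01%, 3.5%, 8.5% and 9.57%. In LH vs. Ctrl, 8 passed the adjusted threshold without LH 3 and LH 4, *Cct2*, *Cct5*, *Gsk3b*, *Kif5b*, *Kif5c*, *Lrp6*, *Osbpl8* and *Upf2*, all higher in LH, as 5.41% of all gene names did in either direction, and 7 with median-ratio size factors, as 2.87% did.

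Among the partners of *Rora* in the clock, *Nr1d1*, the repressor that competes for the same DNA sites, had the smallest p in LH vs. Ctrl. It measured 5.38 FPKM on average in LH and 3.18 in Ctrl (log2 difference 0.73, SE 0.19, limma adjusted p 0.148, and 0.0931 without LH 3 and LH 4). In HC it averaged 4.50 FPKM, above Ctrl (Ctrl minus HC -0.49 on the log2 scale, limma p 0.0182, adjusted p 1), and in NLH it averaged 4.77 FPKM (NLH minus Ctrl 0.53, limma adjusted p 0.676). Of the 6 clock genes, 1 was higher in LH vs. Ctrl, 1 lower in Ctrl vs. HC and 2 higher in NLH vs. Ctrl at an unadjusted p under 0.05, a level that 11.5%, 2.7% and 5.59% of all gene names reached in either direction.

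In the Wnt list of *Dvl2*, 2 of 9 genes were higher and 1 lower in LH vs. Ctrl at that level, 1 was lower in LH vs. NLH and 1 higher in NLH vs. Ctrl, against 11.5%, 7.54% and 5.59% of all gene names in either direction. *Gsk3b*, a kinase of the beta-catenin destruction complex, averaged 35.3 FPKM in LH and 27.4 in Ctrl (log2 difference 0.36, SE 0.10, limma adjusted p 0.168). Without LH 3 and LH 4 its log2 difference was 0.45 (limma adjusted p 0.0295). *Dvl3*, a paralog of *Dvl2*, averaged 0.535 FPKM in LH and 1.05 in NLH (log2 difference -0.87, SE 0.22, limma adjusted p 0.349), and -0.57 (adjusted p 0.266) without LH 3 and LH 4. *Apc*, the scaffold of the same complex, had the smallest p in NLH vs. Ctrl, at 18.7 and 12.4 FPKM (log2 difference 0.59, SE 0.18, limma adjusted p 0.567).

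Of the other lists, that of kinesin-1 and the ribosome receptor of the endoplasmic reticulum had 4 of 6 genes higher in NLH vs. Ctrl at an unadjusted p under 0.05 and 1 of 6 higher in LH vs. Ctrl, among them *Kif5b*, a heavy chain of the motor, at 34.5 and 27.7 FPKM (log2 difference 0.31, SE 0.10, limma adjusted p 0.57). The median log2 difference of this list there was 0.26, against 0.06 over all gene names, of which 5.59% reached that level there in either direction. With all mice, none of the 7 other TRiC subunits reached that level in any contrast, with a median log2 difference of 0.20 for LH vs. Ctrl and of -0.01 for LH vs. NLH. Without LH 3 and LH 4, *Cct2* (log2 difference 0.40, limma adjusted p 0.0403) and *Cct5* (0.41, 0.0282) were higher in LH vs. Ctrl. Of the 8 listed decay factors, only *Upf2*, which binds UPF1 during decay, reached that level, higher in LH vs. Ctrl (limma adjusted p 0.168, and 0.0461 without LH 3 and LH 4) and in Ctrl vs. HC, where 11.5% and 2.7% of all gene names did. It averaged 5.24 FPKM in Ctrl and 4.33 in HC (log2 difference 0.27, SE 0.11, limma p 0.0289, adjusted p 1). Of the 11 oxysterol-binding genes 2 were higher in LH vs. Ctrl, 1 in LH vs. NLH and 1 in Ctrl vs. HC. Of the 6 PDZ-LIM genes 1 was higher in LH vs. Ctrl, 2 were lower in LH vs. NLH and 1 was higher in NLH vs. Ctrl. In LH vs. Ctrl this was *Pdlim4* (log2 difference 0.80, and 0.13 without LH 3 and LH 4). In LH vs. NLH these were *Pdlim2* (-0.64, and -0.74 without them) and *Ldb3* (-0.63, and -0.11 without them). Over all gene names 11.5%, 7.54%, 2.7% and 5.59% reached that level in LH vs. Ctrl, LH vs. NLH, Ctrl vs. HC and NLH vs. Ctrl. Of the 4 clade B serpins 1 was higher in LH vs. Ctrl and 1 in NLH vs. Ctrl, and of the 4 genes of the EvC zone of the cilium 1 was lower in LH vs. NLH. The 1 paralog of *Nol4* did not reach that level in any contrast. *Upf2*, *Osbpl6*, *Pdlim2* and *Smo* complete the genes with the smallest p, and *Pdlim2* (limma adjusted p 0.518) and *Smo* (0.561) were those after *Dvl3* in LH vs. NLH.

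Over the 16 mice, the transcripts of other genes most like the 6 isoforms lower in LH belonged to *Itsn1* (Pearson r 0.941), *Adarb2* (0.909) and *Rnf31* (0.904), among 15601 transcripts with a mean of at least 1 FPKM. The *Itsn1* transcript, ENSMUST00000124094.7, was 1.28 to 8.69 FPKM in the 12 mice outside LH and under 0.01 in all LH mice. Those most like the 4 higher in LH belonged to *Ubxn2a* (0.878), *Pclo* (0.857) and *Homer1* (0.840). These were present in all mice, with the *Homer1* transcript ENSMUST00000079086.6 at 7.10 to 10.5 FPKM outside LH and 10.9 to 11.6 FPKM in LH. The mice share their group and library, so these correlations are a description.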

How the data were processed

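Per the labels and the study's methods, the authors made libraries from total RNA with a total RNA-seq kit, aligned the reads to mm10, assembled and merged transcripts, and deposited FPKM per transcript and mouse, not scaled further between mice and not on a log scale. The methods name HISAT2 as the aligner and the submitters' processing notes name STAR 2.42a, with StringTie 1.2.3 and Cufflinks in both. Whether the strand was kept is not given in the sources used here. Read counts were not used, so no counting interval is given.

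Limma 3.58.1 (R 4.3.3, the package data.table, version 1.17.8) took log2(FPKM + 0.1) as input, with trend and robust moderation. One fit covered the 80137 transcripts of the 16 mice, and another the summed FPKM of the 18287 gene names. A fold on this scale understates the change of low transcripts. Shares were also compared by exact permutation tests, not read in the report because the choice used these mice, in Python 3.11.15 with scipy 1.17.1, numpy 2.4.6 and pandas 2.3.3, and figures drawn with matplotlib 3.10.9. Positions, types and sequences came from GENCODE vM21 on GRCm38, the build of mm10, which held 93 of the 94 transcripts. Depth was estimated from FPKM steps at 1343 loci that have 1 transcript of over 2000 bases, taking fragments as 200 bases long. Between 58.3% and 71.3% of low values lay within 0.1 of a whole number.

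The genes, the related genes and the tests were chosen with earlier results of these data known. Named in each gene are the separating isoform, the leading other isoform, and the 3 transcripts with the smallest p in Ctrl vs. HC or NLH vs. Ctrl, besides those marked as named later. Related genes are the 3 with the smallest p in a contrast. No label says that the mice of a group came from separate litters or cages, so p-values measure the spread between these mice. No pair of mice had identical values (highest r between mice 0.891). The fit was tested on simulated data. There, 200 of the 80137 transcripts were given a log2 shift of 2. In LH vs. Ctrl, 180 were called, 21 of them falsely, and 79.5% of the shifted ones were recovered. In LH vs. NLH, 143 were called, 11 of them falsely, and 66% were recovered. False calls were 10 of 166 in Ctrl vs. HC and 4 of 158 in NLH vs. Ctrl, with 78% and 77% recovered. The LH contrasts, which chose the isoforms, thus had the most false calls. Alternatives were other pseudocounts, a filter on low values, size factors, other sets of mice, a replicate block, the methods' test, and each mouse left out. Leaving out LH 3 and LH 4 together, and adding assembled transcripts to the sums, were chosen after seeing the data.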

Additional observations from a re-analysis of the deposited data

Results flagged for a closer look

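In 11 of 80 groups of 4 mice, 1 mouse stood far from the other 3 in the separating isoform or the rest of its gene. The rule is set to flag about 1 in 20 groups of normally distributed values. Groups with values at or near 0 are not of that kind, so the count is not read against this rate. Of these, 5 were mice outside LH whose values stayed above those of the LH mice, or concerned the rest of a gene. The *Nol4* isoform was 1.15 FPKM in Ctrl 3 against 2.21 to 2.35 in the other Ctrl mice. The *Pdlim5* isoform was 0.970 FPKM in HC 3 against 0.520 to 0.578. The *Iqce* isoform was 0.282 FPKM in HC 1 against 1.31 to 1.46, and the rest of *Iqce* was 3.90 FPKM in Ctrl 1 against 4.75 to 4.88. The *Dvl2* isoform was 0.442 FPKM in NLH 1 against 1.23 to 1.34.

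In LH, the *Nol4* isoform was 0.596 FPKM in LH 1 against at most 0.0439 in the other 3, and the *Cct4* isoform 0.113 FPKM in LH 1 where the other 3 were listed at 0. The *Pdlim5* isoform was 0.0175 FPKM in LH 2, with the others under 0.01. The *Ktn1* isoform was 0.181 FPKM in LH 2 against 0.950 to 1.08. Among the isoforms higher in LH, 2 had 1 mouse above 0.01 FPKM outside LH, *Ktn1* with 0.133 FPKM in Ctrl 2 and *Serpinb6a* with 0.351 FPKM in HC 3. None of these values closed the gap between LH and the other 12 mice.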

How the results depend on the processing

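Over 24 pairs, mice with the same number in 2 groups did not deviate together (median r -0.00835, range -0.0575 to 0.0874), so the numbers do not pair the mice. The 10 member transcripts past the adjusted threshold fell with a replicate block to 3 for LH vs. Ctrl and to 5 for LH vs. NLH, to 1 and 1 with a pseudocount of 1, to 1 and 1 with a mean FPKM of at least 1, a filter that leaves 1 separating isoform, and to 1 and 2 with only the 2 groups compared. Without LH 3 and LH 4 they were 8 and 4. With each mouse left out in turn they were 3 to 11 and 2 to 11, lowest without Ctrl 1 and without NLH 2. The causes were not tested, apart from the filter's. The log2 differences of the separating isoforms moved by more than the spread between mice in 46 cases, 40 of them with another pseudocount. With 0.01 and 1 in place of 0.1, LH minus Ctrl was 7.25 and 1.44 for *Serpinb6a*, 6.15 and 0.89 for *Rora*, 5.22 and 0.52 for *Smg1*, and -5.50 and -1.37 for *Nol4*, so the size of these differences depends on the pseudocount. The sign of the difference changed in 10 cases of Ctrl vs. HC and 10 of NLH vs. Ctrl, and in no LH contrast. Ctrl minus HC ranged from -0.52 to 0.21 for *Osbpl9* and from -0.22 to 0.50 for *Iqce*. In Ctrl vs. HC, 1 member transcript passed the adjusted threshold with a pseudocount of 0.01, and 0 to 1 with each mouse left out, the 1 without HC 2, while 5 were under an unadjusted 0.05 by the methods' test. In NLH vs. Ctrl the methods' test, unadjusted here and below, gave 2, and leaving out mice 0. Of the member genes, 1 passed in LH vs. Ctrl with size factors and 0 to 1 with each mouse left out, the 1 without LH 4, and the methods' test gave 3, 1, 1 and 2 over the 4 contrasts. Of the related genes in LH vs. Ctrl, 7 passed with size factors, 8 without LH 3 and LH 4, and 0 to 1 with each mouse left out, the 1 without LH 4. The methods' test gave 7, 2, 14 and 11 over the 4 contrasts. For the share of the *Ktn1* isoform in Ctrl vs. HC, 1 test was under 0.05 before adjustment (none after), and 0 were with the replicate block or with a mouse left out, where so few mice cannot reach the threshold. That test used mice that chose the isoform, 7 of 8 of them under 0.01 FPKM, and nothing is read from it. Depth limits the short isoforms most, since those of *Rora*, *Cct4* and *Iqce* rest on a median of under 10 estimated fragments.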

Other observations

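The loci of the 10 genes also hold 24 assembled transcripts without an Ensembl identifier, none of them at *Iqce*. Only at *Cct4* did the sums of all 4 LH mice lie outside the range of the other 12. There they summed to 2.33, 2.11, 2.10 and 2.16 FPKM in LH mice 1 to 4, against 1.40 to 1.59 FPKM in Ctrl, 1.32 to 1.97 FPKM in NLH and 1.22 to 1.67 FPKM in HC. At *Ktn1* they were 6.42, 4.78, 6.43 and 6.29 FPKM in LH and 4.42 to 4.91 FPKM in Ctrl, with overlap through LH 2.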
